A study of Homo sapiens with 4 samples.

Results

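Polyadenylated RNA 3′ ends were compared between 2 of the 4 A-seq libraries of the study, those of HEK293 cells treated with an siRNA against CF Im 68 and with an siRNA against CstF-64. The comparison was fixed by the labels, and each side had 1 library. HEK293 cells are an established line of human embryonic kidney origin. Cells given an siRNA were collected 3 days later, and the other libraries came from cells with a scrambled control siRNA and from cells with no siRNA. All libraries came from the same cell line and from poly(A)-selected RNA. There were no replicates and the spread between cultures cannot be measured, so every test compares 2 libraries, not 2 conditions. As background, control siRNA minus no siRNA was computed in the same way. That difference also holds any effect of the control transfection.

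Cleavage and polyadenylation ends most messenger RNAs, and many genes have several poly(A) sites, so that the choice of site sets the length of the 3′ untranslated region. Cleavage factor I, to which CF Im 68 belongs, recognizes UGUA motifs on the 5′ side of poly(A) sites. The cleavage stimulation factor contacts U- and GU-rich RNA beyond the cleavage position through its subunit CstF-64. The comparison addresses whether siRNA against the upstream-binding or the downstream-binding factor goes with different site use. Depletion of either factor was not measured here, and the libraries of cells given these siRNAs are called the targeted libraries.

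The siRNA strands are shown because they separate the 2 libraries compared, in the order CF Im 68 and CstF-64. They are written 5′ to 3′, with n for the 2 bases given as N in the labels, in strands of 21 nt.
CF Im 68 siRNA: nngaccgagauuacauggaua
CstF-64 siRNA: nnccugaaugggcgcgaauuc

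The CF Im 68 library held 12792623 reads and the CstF-64 library 7343112. All libraries were thinned at random to 7343112 reads, and values below are from thinned reads unless stated. At this depth the CF Im 68 library covered 516098 single-nucleotide end positions, the CstF-64 library 448689, the control siRNA library 517659 and the no siRNA library 427214. Positions within 25 nt were joined into 33726 sites of at least 1 RPM (reads scaled to library size) on average, in 18157 loci. A locus is the set of sites on a strand within 10 kb of its most used site and can hold more than 1 gene. Coordinates are on hg19 and 1-based. No hg19 annotation was used here, so loci are given by position and the transcripts of the targeted factors were not looked up by name.

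Each of the CF Im 68 and CstF-64 libraries held a pair of ends on opposite strands that no other library had. Among ends with at least 10 reads before thinning, at least 3 positions and no read in any other library, exactly 1 such pair within 30 nt was found in the CF Im 68 library and 1 in the CstF-64 library, with 0 in either control library. This search was made after the values were seen. Ends that met these limits numbered 137 in the CF Im 68 library and 2 in the CstF-64 library. The control siRNA library had 3 and the no siRNA library 6. The search thus covered unequal numbers of ends, in libraries of unequal depth. In the CstF-64 library the plus-strand end peaked at 100077350 on chromosome X with 82 reads and the minus-strand end at 100077328 with 52 reads, 22 nt away. In the CF Im 68 library the ends peaked at 69645011 (plus, 24 reads) and 69644991 (minus, 39 reads) on chromosome 12, 20 nt apart. Whether these ends belong to the siRNAs printed above was not tested, since no hg19 sequence was used here.

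The most used site within 25 kb downstream of these ends was lower in the library that held them than in the other 3. On chromosome X, the plus-strand site at 100095906, 18556 nt downstream, had 543 reads (34.4 RPM, before thinning) in the no siRNA library and 268 (19.9 RPM) in the control siRNA library. It had 391 reads (30.6 RPM) in the CF Im 68 library and 33 (4.49 RPM, exact Poisson 95% interval 3.09 to 6.31) in the CstF-64 library. The CstF-64 value lay below those of the other 3 libraries. On chromosome 12, the plus-strand site at 69663720 had 108 RPM in the no siRNA library, 107 RPM in the control siRNA library and 125 RPM in the CstF-64 library. After CF Im 68 siRNA it had 63.3 RPM (59.0 to 67.8), the lowest of the 4 libraries. At 69668135, a site further downstream, the order was different, with 38.6 RPM in the CF Im 68 library, 22.9 RPM in the CstF-64 library, 42.4 RPM in the control siRNA library and 21.4 RPM in the no siRNA library. Values in RPM are relative to the library total, so the amount of RNA per cell was not measured. Why these sites were lower was not tested. Intervals cover counting error only, since the labels name no molecular identifiers.

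The CF Im 68 library used proximal poly(A) sites more than the CstF-64 library. In each locus, the 2 most used sites with at least 5% of its reads formed a pair, and the proximal share is the part of the pair's reads, in percent, that ends at the more 5′ site. Of 4718 pairs with at least 50 reads in both libraries, 1142 (24.2%) showed larger and 220 (4.66%) smaller proximal shares in the CF Im 68 library, so that 83.8% of the called pairs went one way. A pair was called at an adjusted p below 0.05 by a two-sided Fisher's exact test with Benjamini-Hochberg adjustment and a difference of at least 10 percentage points. Between the control libraries, 428 pairs (8.89%) were larger and 377 (7.83%) smaller of 4816. The calls toward larger shares were above that background, and the calls toward smaller shares were below it.

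The median proximal share was 52.5% in the CF Im 68 library and 43.7% in the CstF-64 library. Pair by pair, the median difference was 3.74 points, with quartiles of −1.83 and 11.6 points, against 0.305 points (−5.14 and 5.53) between the control libraries. The share was larger in the CF Im 68 library at 66.9% of pairs, and control siRNA exceeded no siRNA at 51.8%. Differences of 20 points or more, whatever their p, were found in 541 pairs in the positive and 63 in the negative direction, and between the control libraries in 142 and 119. The mean of all 4 libraries decided which sites and pairs entered, so the choice was open to sites that are high in a targeted library only. With sites chosen on the control libraries alone, 909 pairs (20.3%) were larger and 210 (4.69%) smaller, with a median difference of 2.95 points.

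**Figure D1:**
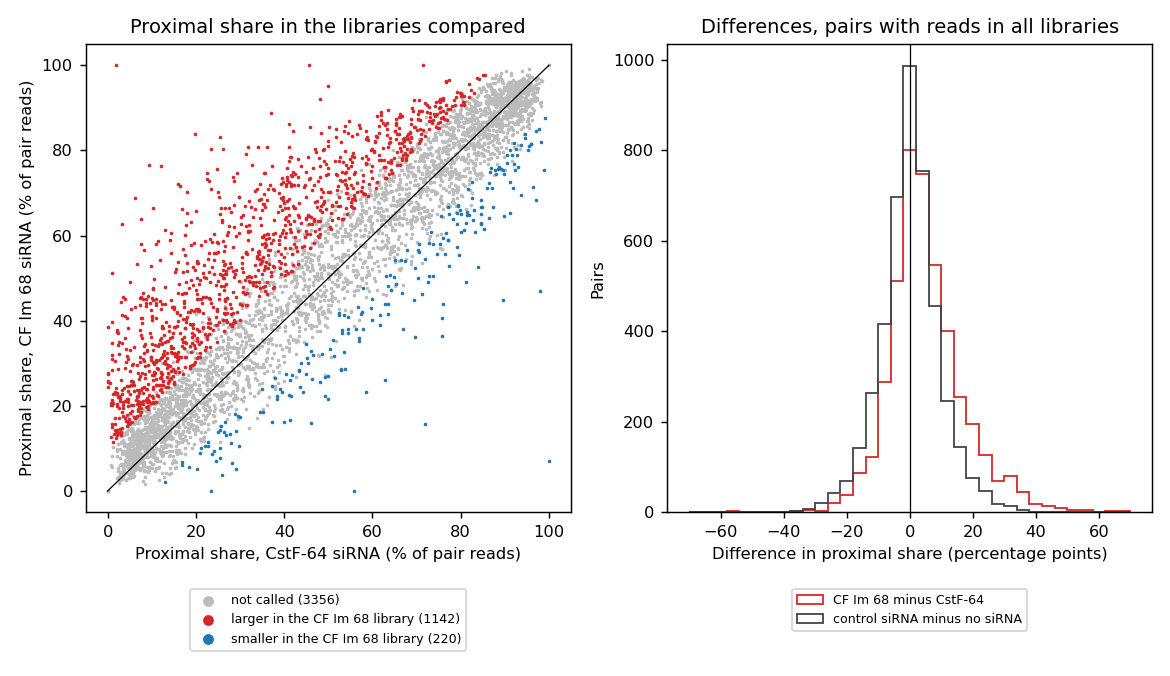
Left, proximal share (percentage of pair reads) of each of 4718 pairs in the CstF-64 library (x axis) and the CF Im 68 library (y axis), coloured by call, with the line of equal shares. Right, number of pairs by difference in share in percentage points for the 4409 pairs with at least 50 reads in every library, differences past 70 points drawn in the outermost bins; the CF Im 68 minus CstF-64 curve extends further to the right than the control curve.

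The difference was spread over most chromosomes and over read depth. On each of the 23 chromosomes tested, more pairs were called larger than smaller in the CF Im 68 library. The percentage called larger ranged from 10.9 to 36.7% with a median of 25.2% over chromosomes, and the percentage called smaller from 1.61 to 6.5%. The median difference per chromosome lay between −0.520 and 7.37 points. Chromosome 19 (247 pairs) had the lowest median, with 10.9% larger and 6.07% smaller. Chromosome 22 (93 pairs) had 11.8% larger and 6.45% smaller, with a median of 0.128 points. Between the control libraries, 8.89% were larger and 7.83% smaller over all chromosomes, and this background was not split by chromosome. In pairs with 50 to 99 reads in the smaller of the libraries, 21.4% were called larger, and with 500 reads or more 19.0%. In between, the percentages were 28.6% at 100 to 199 reads and 25.9% at 200 to 499 reads. Between the control libraries, 6.73, 8.76, 11.3 and 9.08% were called larger in these depth classes from low to high. The median difference was 5.22, 4.27, 3.58 and 2.36 points in the 4 depth classes from low to high. For a share of 50% of 50 reads, the exact 95% interval (Clopper-Pearson) runs from 35.5 to 64.5%, so small differences were not detectable in the shallowest pairs.

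The called share depended on the use of the proximal site in the control libraries. Where the mean of the controls was 25 to 50%, 316 of 936 pairs (33.8%) were larger in the CF Im 68 than in the CstF-64 library and 53 (5.66%) smaller. In this class the median share was 36.1% in the no siRNA library, 37.1% in the control siRNA library, 39.5% in the CstF-64 library and 47.7% in the CF Im 68 library. Below 25% control use, 439 of 1552 pairs (28.3%) were larger and 44 (2.84%) smaller. At 50 to 75%, 209 of 910 (23%) were larger and 63 (6.92%) smaller. Above 75%, the counts came closer, with 81 of 1011 (8.01%) larger and 46 (4.55%) smaller. A share has little room to rise above 75% and little room to fall below 25%, and the part this plays was not tested. The background between the control libraries was not split into these classes.

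Distance between the paired sites went with the size of the difference. At 1001 to 2000 nt, 306 of 869 pairs (35.2%) were larger in the CF Im 68 library and 36 (4.14%) smaller, with a median difference of 6.75 points. Pairs 26 to 100 nt apart were larger in 9.70% of cases, those 101 to 200 nt apart in 16.3%, those 201 to 500 nt apart in 19.8% and those 501 to 1000 nt apart in 28.0%. Beyond 2000 nt the percentage was 31.0% for pairs 2001 to 5000 nt apart and 14.8% for pairs 5001 to 10000 nt apart, where the median difference was 0.324 points. Between the control libraries, the percentage larger stayed between 4.93 and 11.9% over these classes. At 26 to 100 nt, the 9.70% called larger was close to the 8.61% of the controls, but the percentage called smaller was 2.47% against 7.14% and the median difference 2.40 points against 0.114 points. Pairs over 5000 nt apart were also those with the highest percentage called smaller, 8.10%, close to 7.72% between the controls. Such far pairs can join the ends of different genes, and the closest ones can be parts of a single broad site.

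**Figure D2:**
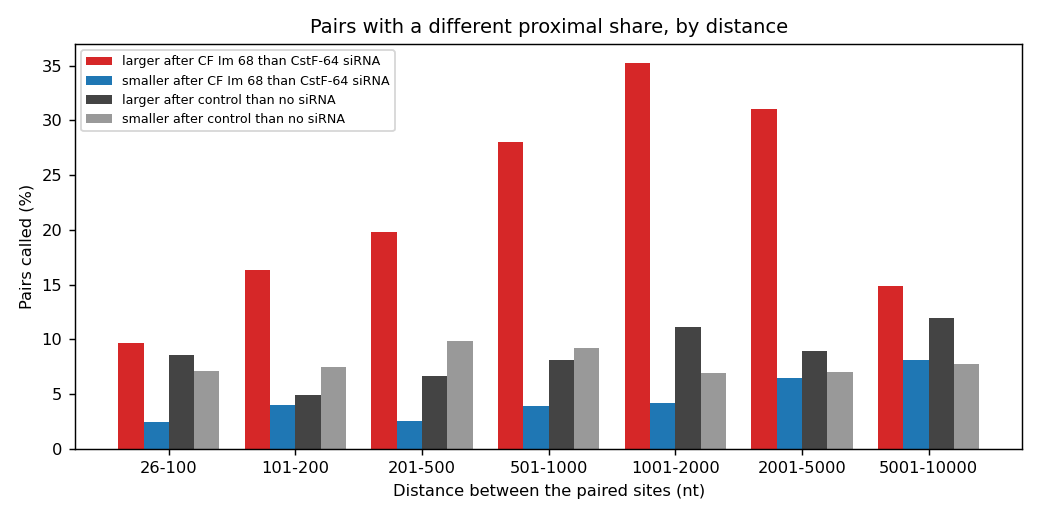
Percentage of pairs called (y axis) by distance between the paired sites in nt (x axis), for CF Im 68 against CstF-64 siRNA and for control against no siRNA, in each direction. The bar for larger shares in the CF Im 68 library is highest at 1001 to 2000 nt, at 35.2%.

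The positive differences lay mainly with the CF Im 68 library. In the 1045 called pairs with a larger share and 50 reads or more in every library, the median share was 31.1% in the no siRNA library, 31.0% in the control siRNA library, 28.8% in the CstF-64 library and 53.1% in the CF Im 68 library. The CF Im 68 library lay at least 10 points above both controls in 661 of these pairs (63.3%) and at least 10 points below both in 3. The CstF-64 library lay at least 10 points below both controls in 128 (12.2%) and above both in 58 (5.55%), and within 10 points of their range in 859 (82.2%). In the 3158 pairs not called, the CF Im 68 library lay as far above both controls in 391 (12.4%) and below both in 87 (2.75%). The CstF-64 library did so in 306 (9.69%) and 111 (3.51%). Pairs picked for a larger share in the CF Im 68 library favour a high value there or a low one in the CstF-64 library. These counts are therefore a description. Each targeted library was set against the same control libraries here, so these counts share them.

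Negative differences had another make-up. In the 206 called pairs with a smaller share in the CF Im 68 library, the median share was 50.5% in the no siRNA library, 54.7% in the control siRNA library, 66.8% in the CstF-64 library and 46.4% in the CF Im 68 library. The CstF-64 library lay at least 10 points above both controls in 90 of them (43.7%), and the CF Im 68 library at least 10 points below both in 38 (18.4%). In the 3158 pairs not called, these counts were 306 (9.69%) and 87 (2.75%). Within 10 points of the range of the controls lay the CstF-64 library in 113 of the 206 pairs (54.9%) and the CF Im 68 library in 159 (77.2%). The pairs were picked for a higher share in the CstF-64 library, so these counts too are a description.

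In pairs with a positive difference, levels differed more at the proximal than at the distal site. In the 1045 pairs, the median proximal site had 18.5 RPM in the CF Im 68 library and 7.49 RPM in the CstF-64 library, with 8.17 RPM in the control siRNA library and 7.63 RPM in the no siRNA library. The median distal site had 14.98 RPM in the CF Im 68 library, 17.2 RPM in the CstF-64 library, 18.1 RPM in the control siRNA library and 15.9 RPM in the no siRNA library. On the log2(RPM + 1) scale, the proximal site was higher in the CF Im 68 library by a median of 1.16 (quartiles 0.69 and 1.71), and the distal site differed by a median of −0.25 (−0.57 and 0.13). The proximal site was at least 2-fold higher in 611 pairs and at least 2-fold lower in 0, and the distal site at least 2-fold higher in 13 and lower in 57. Pairs picked for a larger proximal share favour a higher proximal site, so these counts are a description. In the 3158 pairs not called, the median was 0.23 at the proximal site (272 pairs 2-fold higher, 23 lower) and 0.12 at the distal site. With TMM factors, a scaling added after seeing the data that also brings the median of all locus totals from 0.25 to 0.01, the medians of the 1045 pairs were 0.94 at the proximal site (485 pairs 2-fold higher, 0 lower) and −0.48 at the distal site (7 higher, 137 lower). Those of the pairs not called were then 0.01 and −0.10. In the 206 pairs with a smaller share, the median distal site had 16.7 RPM in the CF Im 68 library and 8.72 RPM in the CstF-64 library, between which the controls stood at 14.2 and 13.6 RPM.

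**Figure D3:**
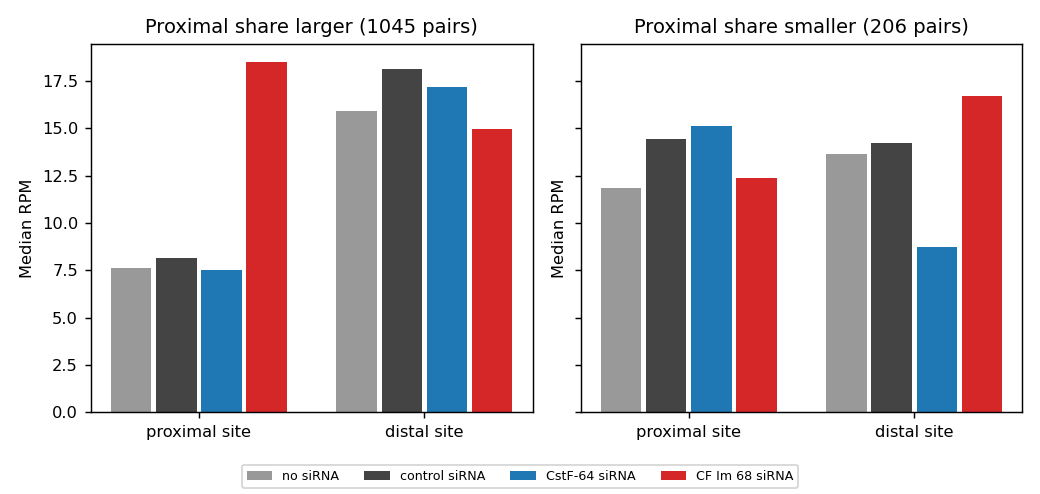
Median RPM (y axis, thinned libraries) at the proximal and the distal site of called pairs in each library, for the 1045 pairs with a larger and the 206 with a smaller proximal share in the CF Im 68 library. In the left panel the CF Im 68 bar stands at 18.5 RPM at the proximal site, and in the right panel the CstF-64 bar is the lowest at the distal site, at 8.72 RPM.

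The 12 pairs with the largest positive difference, by a rule that left out sites with over 90% of their reads at a single position, differed by 51.7 to 67.2 points over distances of 369 to 6922 nt. At 92028550 and 92030692 on chromosome 7 (plus strand), 2142 nt apart, the proximal share was 21.3% in the no siRNA library (95% exact interval 11.9 to 33.7), 7.34% in the control siRNA library (3.22 to 14.0), 9.46% in the CstF-64 library (3.89 to 18.5) and 76.6% in the CF Im 68 library (71.4 to 81.3). The CF Im 68 library alone stood high, by 67.2 points over CstF-64 (Fisher's exact test, adjusted p = 1.99e-25). With sites chosen on the control libraries alone, this pair was not among those tested. Reads of the targeted libraries thus helped to pick it, so its p is a description. The proximal site there had 226 reads in the CF Im 68 library against 7 in the CstF-64 library, and the distal site 69 against 67.

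The minus-strand pair at 20451050 and 20448501 on chromosome 2 had 8.16% in the no siRNA library, 6.80% in the control siRNA library, 6.29% in the CstF-64 library (3.06 to 11.3) and 68.8% in the CF Im 68 library (64.2 to 73.2). The first 3 libraries were within 2 points of one another. On chromosome 11 (plus strand, 13750435 and 13753042) the shares were 20.7%, 13.4%, 12.2% and 76.4% in the same order. At 24862250 and 24863505 on chromosome 1 (plus strand), only 1255 nt apart, they were 19.0%, 22.0%, 16.3% and 71.6%. In these pairs too, the CF Im 68 library stood apart and the intervals of the other libraries overlapped. None of these pairs was among those tested with sites chosen on the control libraries alone.

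In other pairs of this group the targeted libraries lay on either side of the controls. At 37905042 and 37902044 on chromosome 19 (minus strand), the share was 43.4% in the no siRNA library (33.8 to 53.4), 38.6% in the control siRNA library (28.1 to 49.9), 22.5% in the CstF-64 library (14.9 to 31.9) and 74.7% in the CF Im 68 library (67.6 to 81.0). The CF Im 68 value was above both controls and the CstF-64 value below them, with an interval that overlapped that of the control siRNA library. The pair at 56300994 and 56294072 on chromosome 4 (minus strand), the most widely spaced of the 12, had 59.5%, 57.1%, 37.0% (24.3 to 51.3) and 88.7% (83.6 to 92.7) in the same order of libraries.

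A single pair of the 12 stood out through the CstF-64 library alone. On chromosome 12 (plus strand), the site at 54678664 had 71.3% of its pair with 54679033 in the no siRNA library (70.3 to 72.3, 8344 reads) and 68.1% in the control siRNA library (66.8 to 69.4, 4772 reads). After CF Im 68 siRNA it had 72.2% (70.8 to 73.5, 4115 reads) and in the CstF-64 library 16.0% (14.5 to 17.6, 2228 reads). The proximal site went from 2970 reads in the CF Im 68 library to 357 in the CstF-64 library, and the distal site from 1145 to 1871.

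**Figure D4:**
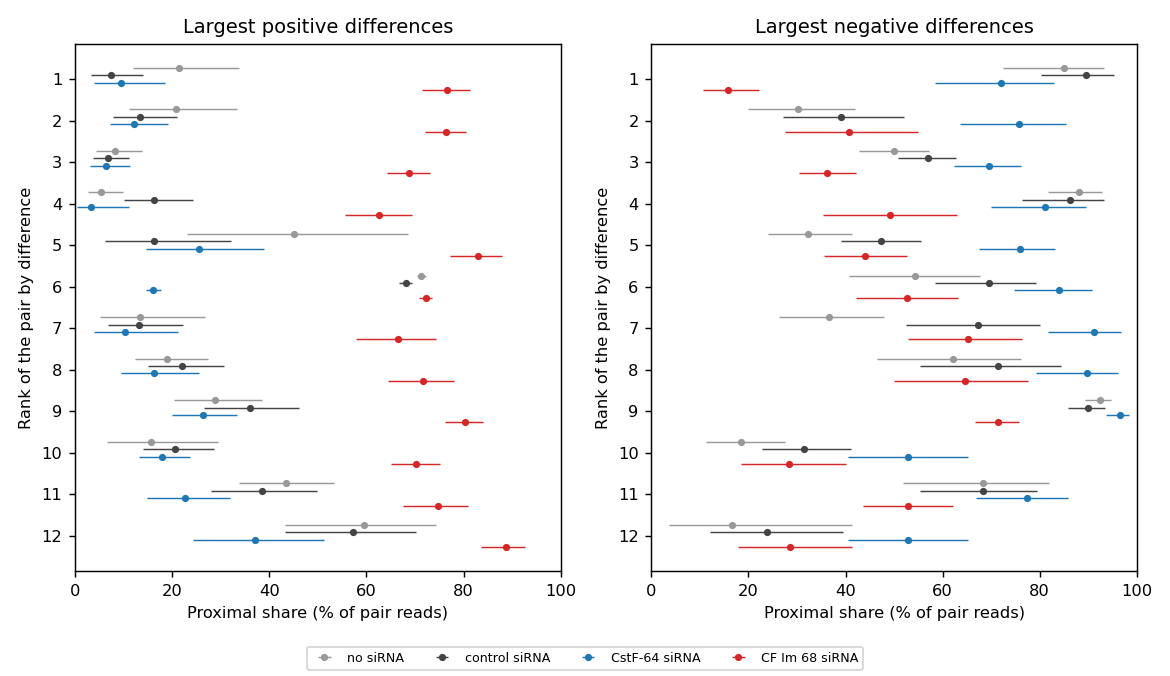
Proximal share (x axis, percentage of pair reads) in each library for the 12 pairs with the largest positive (left) and negative (right) difference, ranked from the top; bars are exact 95% intervals for counting error. On the left the CF Im 68 points lie at 62.6% or more in every pair, and pair 6 is the one whose CstF-64 point, at 16.0%, lies far from the controls while the CF Im 68 point lies near them.

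Among called pairs, 69 with a positive and 47 with a negative difference had the CstF-64 library at least 10 points outside the range of the controls and the CF Im 68 library within 5 points of it, after single-position sites were left out. These pairs also had at least 50 reads in every library. Without that limit, 859 called pairs with a positive and 144 with a negative difference could be named. The 47 were thus a larger part of the negative pairs than the 69 of the positive ones. How many pairs not called met the same limits was not counted. The plus-strand pair at 23961043 and 23961286 on chromosome 3, 243 nt apart, had a proximal share of 48.5% in the no siRNA library, 33.5% in the control siRNA library, 52.8% in the CF Im 68 library (50.8 to 54.9) and 9.77% in the CstF-64 library (8.69 to 10.9). The intervals of the control libraries (46.8 to 50.2 and 31.7 to 35.4) did not overlap there. At 24686072 and 24683162 on chromosome 14 (minus strand), the shares were 79.6%, 66.8%, 74.8% (72.6 to 76.8) and 35.7% (32.9 to 38.6) in the same order, and the difference of 39.0 points came to 59.3 points with positions joined within 10 nt. On chromosome 4 (minus strand), the pair at 83345776 and 83344364 had 81.7%, 64.2%, 75.8% and 40.7%. In each of these pairs the CstF-64 value was the lowest, and it was the distal site that gained in share.

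In the opposite case, with a high proximal share in the CstF-64 library alone, the pairs with the largest differences had fewer reads than those 3. At 15710116 and 15708746 on chromosome 3 (minus strand), the share was 32.2% in the no siRNA library (24.0 to 41.3), 47.3% in the control siRNA library (39.1 to 55.6), 44.0% in the CF Im 68 library (35.6 to 52.6) and 76.0% in the CstF-64 library (67.5 to 83.2). The pair 379 nt apart at 43536793 and 43537172 on chromosome 20 (plus strand) had 30.1%, 39.1%, 40.7% and 75.8% (63.6 to 85.5, 66 reads) in the same order. It had 54 reads in the CF Im 68 library and was not among the pairs tested with another seed of the thinning. The minus-strand pair at 38055162 and 38045684 on chromosome 19 had 18.4%, 31.4%, 28.4% and 52.9% (40.4 to 65.2). The adjusted p of these 3 pairs ranged from 1.07e-06 to 0.0116 by Fisher's exact test. The pairs were picked among called pairs by the size of this difference, so these p are a description.

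With sites of over 90% at a single position left out again, the 12 largest negative differences covered 24.4 to 56.1 points. The largest of them lay on chromosome 1 (plus strand), where the site at 66101111 had 84.9% of its pair with 66102008 in the no siRNA library, 89.5% in the control siRNA library (80.3 to 95.3), 71.9% in the CstF-64 library (58.5 to 83.0) and 15.8% in the CF Im 68 library (10.7 to 22.1). It had 27 reads in the CF Im 68 library and 41 in the CstF-64 library, while the distal site had 144 against 16. The CF Im 68 library also stood low at 49506883 and 49505592 on chromosome 20 (minus strand), with 92.4%, 90.04%, 96.5% (93.6 to 98.3) and 71.4% (66.7 to 75.7) in the order no siRNA, control, CstF-64 and CF Im 68 siRNA. On chromosome X (minus strand), at 119570356 and 119565006, the targeted libraries lay on either side of the controls, with 50%, 56.9%, 69.6% (62.4 to 76.1) and 36.1% (30.4 to 42.1) in that order.

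The most read pairs gave smaller differences with tight intervals. At 85912301 and 85912931 on chromosome 10 (plus strand), the proximal share was 17.8% in each control library, 24.2% in the CstF-64 library (23 to 25.3, 5261 reads) and 54.2% in the CF Im 68 library (52.7 to 55.8, 3900 reads). Both targeted libraries were above the controls there, the CF Im 68 library further. The plus-strand pair on chromosome X at 118377387 and 118378429 had 4.79%, 5.01% and 5.89% (5.08 to 6.77) in the no siRNA, control and CstF-64 libraries and 17.5% (16.4 to 18.6) in the CF Im 68 library. This pair was not among those tested with sites chosen on the control libraries alone. Only 88 nt apart, the minus-strand sites at 39923865 and 39923777 on chromosome 19 gave 73.6%, 76.1%, 65.2% (63.8 to 66.7) and 82.6% (81.4 to 83.7), with the controls between the targeted libraries. At 36570068 and 36570560 on chromosome 6 (plus strand) the CF Im 68 value, 61.2%, lay between the controls (70.7% and 51.0%), and the CstF-64 value, 39.7%, below them.

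With negative sign, the pair at 45976900 and 45976724 on chromosome 1 (minus strand), 176 nt apart, had the most reads. Its proximal share was 41.3% in the no siRNA library, 47.1% in the control siRNA library, 46.4% in the CF Im 68 library (45.2 to 47.6, 6984 reads) and 66.6% in the CstF-64 library (65.5 to 67.7, 7452 reads). At 38874115 and 38874464 on chromosome 19 (plus strand), the values were 49.9%, 50.1%, 50.8% (49.6 to 52.1) and 63.9% (62.7 to 65.1). In both pairs the CstF-64 library stood high and the CF Im 68 library lay near the controls. At 45585250 and 45585106 on chromosome 14 (minus strand), the share was above both controls (13.8% and 17.3%) in either targeted library, at 28.5% in the CF Im 68 library and 43.5% in the CstF-64 library.

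In loci with 3 or more sites, the most 5′ site took the largest part of the difference. Over 1318 loci with 3 sites and 50 reads or more in every library, the most 5′ site held on average 38.2% in the CF Im 68 library and 30.6% in the CstF-64 library, a mean difference of 7.64 points, against 0.163 points between the controls. The middle site differed by −1.74 points and the most 3′ site by −5.90 points. In 604 loci with 4 sites, the differences from the 5′ to the 3′ side were 7.61, 0.721, −3.84 and −4.50 points. In 239 loci with 5 sites they were 10.5, 3.66, −2.55, −6.34 and −5.31 points, so that the first and next sites were both higher in the CF Im 68 library. At the most 5′ site of this class the CstF-64 library stayed near the controls, with 15.8% against 16.0% in the no siRNA library and 15.8% in the control siRNA library. At the last site it had 22.3%, below 24.4% and 23.2%. In loci with 3 sites it had 30.6% at the first site, above 29.4% and 29.5%, and 36.1% at the last, below 38.1% and 37.8%. In loci with 4 sites it had 21.7% at the first site, above 20.0% and 20.3%, and 26.6% at the last, below 28.7% and 28.2%.

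**Figure D5:**
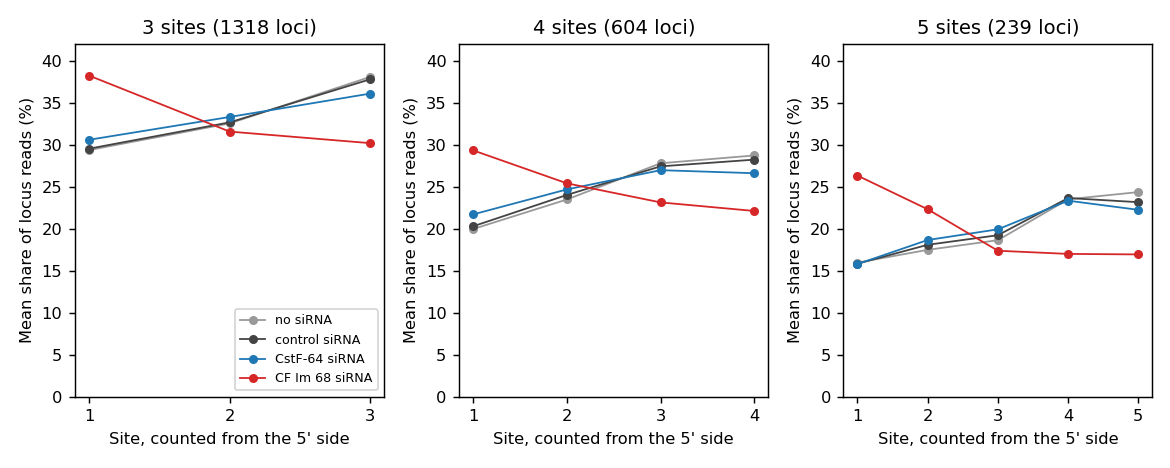
Mean share of locus reads (y axis, %) at each site counted from the 5′ side (x axis) in loci with 3, 4 and 5 sites, 1 line per library. The CF Im 68 line starts highest at the first site and ends lowest at the last, and the other 3 lines lie close together.

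Measured over all sites of a locus, ends were nearer the 5′ side in the CF Im 68 library. In 4925 loci with at least 2 sites and 50 reads in both libraries, the distance of ends from the most 5′ site, averaged over reads, had a mean over loci of 1287 nt in the CF Im 68 library and 1418 nt in the CstF-64 library. The median difference was −37.4 nt, with quartiles of −234 and 5.65 nt, against −0.991 nt (−68.7 and 55.0) between the control libraries. In 1362 loci (27.7%) this distance was shorter by 200 nt or more, and in 450 (9.14%) longer by as much. Between the controls 698 of 5024 loci (13.9%) were shorter and 586 (11.7%) longer by as much.

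Some sites were read in only one of the targeted libraries. With at least 20 reads in 1 library and 0 in the other, 265 sites were found in the CF Im 68 library alone and 208 in the CstF-64 library alone. For control and no siRNA the counts were 167 and 82. Most were single positions: 218 of the 265, 206 of the 208, and all of the 167 and 82 had over 90% of their reads at 1 position. The remaining 47 sites in the CF Im 68 library had 20 to 112 reads over a median of 6 positions. Of the 47, 36 lay upstream of the most used site of their locus, 10 were that site and 1 lay downstream. Among the 10, 9 were the only site of their locus. How often sites in general lie upstream of the most used site was not counted, so these numbers are a description. In 5 of the 47, neither control library had a read. The remaining 2 sites of the CstF-64 library were the opposite-strand ends on chromosome X given above.

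The 47 sites had at most 30 reads in a control library, with a median of 3 in the higher of the controls and over 5 in 9 of them. Upstream sites among those with the most reads serve as examples. At 53133392 on chromosome 6 (minus strand), 1189 nt upstream of the most used site of its locus, there were 112 reads in the CF Im 68 library, 0 in the CstF-64 library, 3 in the control siRNA library and 5 in the no siRNA library. The site at 19444787 on chromosome 18 (plus strand) had 70 reads in the CF Im 68 library, 0 in the CstF-64 library, 3 and 5 in the controls, and lay 5344 nt upstream of the most used site. At 11576292 on chromosome 6 (plus strand), 7464 nt upstream, there were 69 reads in the CF Im 68 library, 0 in the CstF-64 library, 0 in the control siRNA library and 2 in the no siRNA library. A count of 0 allows up to 3 reads of the library (a one-sided 95% limit), for counting error only. These sites were picked for their reads in this comparison and are a description.

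Locus totals, which follow the amount of RNA with ends in the locus, were more often higher than lower in the CF Im 68 library, and the split moved with the scaling. Of 12124 loci with 50 reads or more in the compared libraries together, 1489 (12.3%) were at least 2-fold higher and 242 (2%) at least 2-fold lower in the CF Im 68 library on the log2(RPM + 1) scale, so that 86% were higher. Between the controls, 693 loci (5.69%) were higher and 261 (2.14%) lower. There is no test, since each side had 1 library. With TMM factors the counts were 924 higher and 449 lower (67.3% higher), and with DESeq2 size factors 887 and 476 (65.1% higher). The median log2 ratio of all loci was 0.25 by total reads, 0.01 with TMM factors and −0.01 with DESeq2 size factors.

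Single-position sites filled the extremes of the totals. The 6 highest and the 6 lowest ratios all rested on a site with 1 position. At 582754 on chromosome 17 (plus strand) there were 1419 reads in the CF Im 68 library and 0 in the other 3 libraries. At 43718161 on chromosome 6 (minus strand) there were 3548 reads in the CstF-64 library, 0 in the CF Im 68 and control siRNA libraries and 9 in the no siRNA library. With single-position sites left out, a choice made after the values were seen, 1292 of 10343 loci (12.5%) were higher and 77 (0.744%) lower, and between the controls 431 (4.12%) were higher and 194 (1.85%) lower. The 242 lower loci thus came to 77 without such sites.

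Without single-position sites, the opposite-strand ends on chromosome X given above, with 0 reads in the other 3 libraries, were among the 6 lowest totals, and 2 of the 6 highest had 0 reads in the CstF-64 library. The lowest ratio was at 89982730 on chromosome 4 (minus strand), with 30.2 RPM in the CstF-64 library, 0.545 RPM in the CF Im 68 library and 0.681 RPM in each control library. That site had 87.6% of its reads at 1 position, just under the limit of 90% for leaving a site out. The loci that follow had reads in every library. The total at 58889390 on chromosome 15 (minus strand) had 33.5 RPM in the CF Im 68 library (29.4 to 38.0, exact Poisson 95% interval) and 2.45 RPM in the CstF-64 library (1.45 to 3.87), with 3.40 RPM in the control siRNA library and 2.04 RPM in the no siRNA library. At 19982002 on chromosome 20 (minus strand) there were 21.5 RPM in the CF Im 68 library, 0.953 RPM in the CstF-64 library, 4.09 RPM in the control siRNA library and 2.32 RPM in the no siRNA library. In both, the CF Im 68 library stood above the other 3. On the other side, the locus at 35790200 on chromosome 22 (plus strand) had 292 RPM in the CstF-64 library (280 to 305) and 67.8 RPM in the CF Im 68 library (62.0 to 74.0), with 58.1 RPM in the control siRNA library and 59.1 RPM in the no siRNA library. The total at 34322738 on chromosome 20 (minus strand) had 23.8 RPM in the CstF-64 library, 5.72 RPM in the CF Im 68 library, 12.7 RPM in the control siRNA library and 8.17 RPM in the no siRNA library.

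The position of cleavage within a site differed little between the targeted libraries. In 10105 sites with at least 50 reads in both, the read-weighted mean position was at least 2 nt further downstream in the CF Im 68 library in 111 (1.1%) and further upstream in 124 (1.23%). Between the controls the counts were 99 (0.96%) and 171 (1.66%) of 10316. The median absolute difference was 0.204 nt, against 0.229 nt between the controls. The most used position held a median of 68.4% of site reads in the CF Im 68 library and 68.8% in the CstF-64 library.

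The largest difference downstream was at a site already named. At 24686072 on chromosome 14 (minus strand), the mean end lay 3.18 nt upstream of the most used position in the CF Im 68 library and 10.7 nt upstream in the CstF-64 library, with 7.65 nt in the control siRNA library and 6.01 nt in the no siRNA library. That position held 56.5% of the reads of the site in the CF Im 68 library, 16.0% in the CstF-64 library, 36.8% in the control siRNA library and 43.6% in the no siRNA library. At this site the CstF-64 library had both the lowest share of the pair and the most upstream ends. Similarly, at 3022794 on chromosome 16 (minus strand) the most used position held 46.2% in the CF Im 68 library, 20.4% in the CstF-64 library, 41.7% in the control siRNA library and 44.3% in the no siRNA library. In the other direction, at 114432505 on chromosome 9 (plus strand), it held 47.8% in the CF Im 68 library, 6.21% in the CstF-64 library (161 reads), 56.2% in the control siRNA library and 74.5% in the no siRNA library, and the mean end in the CstF-64 library lay 16.9 nt downstream.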

How the data were processed

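The deposited values are raw counts of reads whose 3′ end falls on a given nucleotide of a strand, with hg19 (GRCh37) coordinates per the submitters' processing notes. The aligner, filters and handling of copies are not given in the sources used here. Poly(A) RNA was, per the labels' protocols, bound to oligo-dT beads, partly digested with RNase I and reverse transcribed from an anchored oligo-dT primer; such primers can also start in A-rich stretches, which were not separated. Counts were thinned without replacement to the smallest total (seed 1), clustered and paired as described above, on chromosomes 1 to 22 and X (numpy 2.4.6, scipy 1.17.1). No annotation of hg19 was used, so a 10 kb window took the place of terminal exons, and the gene lists, target genes and sequence motifs of the plan were not analysed here. TMM factors came from edgeR 4.0.16 and size factors from DESeq2 1.42.0. The comparison, its rules and lists were chosen with earlier results of these data known. Pairs named were the 12 largest differences each way, 4 each way with the most reads, and 4 each way with the CstF-64 library apart from the controls, as far as given; totals and cleavage positions were named from the 6 and 4 most extreme each way, and others are marked as chosen later.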

Additional observations from a re-analysis of the deposited data

Results flagged for a closer look

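Reads on the mitochondrial chromosome were outside the comparisons of sites. They made up 1.43% of the CF Im 68 library and 0.885% of the CstF-64 library on the plus strand, against 0.754% in the control siRNA library and 0.540% in the no siRNA library. On the minus strand they made up 2.31% and 0.908%, against 0.775% and 0.628%. Both targeted libraries were above both controls on either strand, the CF Im 68 library further. Nuclear reads outside the sites made up 6.66% of the CF Im 68 library, above the 6.11% in the control siRNA library, 5.17% in the CstF-64 library and 4.62% in the no siRNA library. All these percentages are of reads before thinning.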

How the results depend on the processing

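The depth of 7343112 reads and 1 library per side limit every result. No paired analysis was possible because each group had 1 library. Larger shares in the CF Im 68 library outnumbered smaller ones under all 14 alternatives run. The counts moved by over 1.5 times with a minimum of 200 pair reads, which left 2082 pairs (485 larger, 91 smaller), with at least 20 points (540 and 62), and, for smaller shares, with the adjusted p alone (388). The median difference in share moved to 2.95 points with sites chosen on the control libraries, 4.29 with sites chosen on the compared libraries, 2.99 with 200 pair reads, 2.94 with clustering within 10 nt, 4.73 with sites of at least 10% of locus reads and 4.19 without single-position sites. The median difference in end distance was −24.7 nt with 200 reads and −24.2 nt with sites chosen on the control libraries. Locus totals were 924 higher and 449 lower with TMM factors, 887 and 476 with DESeq2 size factors, 760 and 157 with a pseudocount of 5 RPM, and 248 and 124 at 4-fold. Those lower were 451 with no filter on reads and 77 without single-position sites (an alternative added after seeing the data). With TMM factors (also added later), the median log2 ratio of distal sites in pairs not called went from 0.12 to −0.10. Cleavage positions differed at 12 and 14 sites with at least 4 nt, and at 11 and 16 with clustering within 10 nt, where positions further off belong to other sites. Otherwise the cause was not tested. The 35 named pairs gave 444 values under the alternatives, of which 439 stayed called and 0 reversed. The other 5, all at 20 points, did not pass. The pairs were picked because they were called, so this tally is a description. With the adjusted p alone, a called pair could not drop out. Several alternatives left the reads of a pair unchanged, so that only its adjusted p could move. A pair that was not tested under an alternative gave no value and is not counted. With sites chosen on the control libraries, these included the pairs at 92028550, 13750435, 20451050, 60339253, 110462691, 24862250 and 93952775. They lay, in that order, on chromosomes 7, 11, 2, 1, 5, 1 and 6, among the largest positive differences. Also without a value there were those at 107259103, 105921570 and 118377387 on chromosomes 7, 14 and X. With another seed of the thinning, the pair at 43536793 on chromosome 20 gave no value. The pair at 24686072 on chromosome 14 went from 39.0 to 59.3 points with clustering within 10 nt. The removal of A-rich sites was not run, since no hg19 genome was used.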
